A study of Mus musculus with 14 samples.

Results

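A set of 35 glycolytic enzymes, glucose and lactate transporters, hypoxia response genes and hypoxia-inducible factor (HIF) alpha subunits were followed in differentiating mouse embryonic stem (ES) cells in which blood and endothelial transcription factors were switched on. The genes were chosen by symbol, and each was read from the single-symbol probe set of highest mean signal. Of the 35 genes, 32 were measured, among 19938 genes named on the arrays. Gpi1 and Eno1 matched no probe set by symbol, and Gapdh was carried by 25 probe sets that also named other symbols, with a median signal per array between 12.87 and 13.07 on the log2 scale.

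The study profiled 14 embryoid body samples, 1 Affymetrix array each, with doxycycline at 1 µg/ml from day 2 to induce ER71/Etv2, GATA2 and Scl. The ES line was iEGS in replicates 1 and 2 and iB1 in replicate 3, and the controls were the same lines without doxycycline, labelled wild-type, although iEGS carries the inducible factors; the labels do not describe iB1 further. The groups were induced 6 h and control day 2.25 (1 array each), induced 12 h and control day 2.5 (3 arrays each), and induced 24 h and control day 3 (3 arrays each). The series' design text names ER71/Etv2 and GATA2 as induced while the sample labels add Scl. PMEF feeder cells had supported the ES cells until differentiation began, and the labelled material was amplified complementary DNA. Replicates came from independent experiments per the design text, and line and replicate number cannot be told apart.

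Glycolysis splits glucose into pyruvate, which is reduced to lactate by lactate dehydrogenase or oxidised in mitochondria. Under low oxygen the HIF alpha subunits escape hydroxylation by the prolyl hydroxylases, pair with ARNT and activate genes through a short core sequence, among them glucose transporters, glycolytic enzymes, the pyruvate dehydrogenase kinase Pdk1 and the prolyl hydroxylase Egln3 itself. Pluripotent cells and endothelial cells are both known for a high rate of glycolysis.

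The induction could be read from the arrays themselves. Gata2 stood at 10.06 at 6 h against 5.68 in its control, and was higher by 4.44 at 12 h and by 3.95 at 24 h (log2, n = 3 arrays per group). Etv2 was higher by 3.11 and 1.94 and Tal1, which encodes SCL, by 2.48 and 2.30. Every induced array lay above every control array of its day for these 3 genes. Between arrays, the mean correlation with the other arrays ran from 0.966 to 0.986, lowest for induced 24 h replicate 3.

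The promoter windows of the members that the results turn on are printed first, so that matches of the hypoxia response core in them can be seen. Sequence outside the windows was not searched. Windows run from 250 bases before to 50 after a RefSeq transcription start in GRCm38.p6, and are given 5′ to 3′ on the gene's strand. Capitals mark matches of the hypoxia response core, ACGTG or GCGTG, on either strand, so that CACGT and CACGC are the same cores read from the other strand and CACGTG holds 2 overlapping matches. Ldhb, Slc16a1 and Egln3 are the 3 members that passed the test at 24 h, and Ero1a and Bnip3 are 2 hypoxia response genes that did not.
Ldhb (chr6:142507908-142508207, - strand): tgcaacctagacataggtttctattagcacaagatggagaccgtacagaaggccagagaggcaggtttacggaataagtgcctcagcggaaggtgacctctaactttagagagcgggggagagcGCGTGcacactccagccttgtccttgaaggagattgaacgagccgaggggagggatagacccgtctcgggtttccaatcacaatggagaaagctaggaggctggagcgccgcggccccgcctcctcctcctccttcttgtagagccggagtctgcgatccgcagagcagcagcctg
Slc16a1 (chr3:104638414-104638713, + strand): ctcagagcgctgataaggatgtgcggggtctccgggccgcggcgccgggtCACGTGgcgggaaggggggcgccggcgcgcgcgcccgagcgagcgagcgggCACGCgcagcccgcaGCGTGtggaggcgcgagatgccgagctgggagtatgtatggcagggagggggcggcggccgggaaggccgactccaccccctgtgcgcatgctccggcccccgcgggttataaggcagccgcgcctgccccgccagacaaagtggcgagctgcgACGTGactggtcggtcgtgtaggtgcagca
Egln3 (chr12:54203825-54204124, - strand): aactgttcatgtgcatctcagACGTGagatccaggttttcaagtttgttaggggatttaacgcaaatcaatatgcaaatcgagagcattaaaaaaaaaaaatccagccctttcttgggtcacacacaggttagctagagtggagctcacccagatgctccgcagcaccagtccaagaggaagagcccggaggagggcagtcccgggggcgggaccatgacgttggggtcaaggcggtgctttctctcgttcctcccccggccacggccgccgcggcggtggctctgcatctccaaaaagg
Ero1a (chr14:45318523-45318822, - strand): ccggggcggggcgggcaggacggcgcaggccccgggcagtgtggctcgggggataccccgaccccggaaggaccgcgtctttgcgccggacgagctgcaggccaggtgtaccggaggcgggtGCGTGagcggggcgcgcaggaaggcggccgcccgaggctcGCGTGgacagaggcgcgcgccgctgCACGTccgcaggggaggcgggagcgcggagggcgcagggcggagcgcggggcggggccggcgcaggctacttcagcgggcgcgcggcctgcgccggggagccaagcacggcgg
Bnip3 (chr7:138909457-138909756, - strand): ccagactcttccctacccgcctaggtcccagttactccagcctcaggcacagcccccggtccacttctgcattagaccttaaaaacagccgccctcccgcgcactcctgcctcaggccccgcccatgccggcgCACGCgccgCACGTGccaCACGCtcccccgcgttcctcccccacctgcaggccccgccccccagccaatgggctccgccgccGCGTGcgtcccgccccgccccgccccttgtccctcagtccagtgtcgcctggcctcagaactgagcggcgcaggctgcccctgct

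Ldhb and Egln3 held 1 core each, Ero1a held 3, and Slc16a1 and Bnip3 held 5 each. Of the measured members, 29 had 1 or more windows in the table, 40 windows in all, and Slc2a3, Bnip3l and Epas1 had none there. The hypoxia core occurred in 33 of these 40 windows (82.5%), against 43.8% of all 32851 windows. Counted by gene, 27 of the 29 members held it in 1 or more windows. Windows of the same gene can overlap and are not independent, and no share per gene was taken over all genes. Member windows were also richer in G and C, with a median of 64% against 52.7%, and windows of like composition were not compared. An ETS core (CCGGAA or CAGGAA, both strands), the letters bound by factors of the ER71 class, occurred in 14 of 40 member windows (35%) against 41.4% of all windows. A GATA core (AGATAA or AGATAG or TGATAA or TGATAG, both strands) occurred in 8 of 40 (20%) against 29.8%. The windows of Ldhb and Egln3 held neither of these cores, and that of Slc16a1 held 1 GATA core and no ETS core. These matches describe letters in a window and not binding.

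At 12 h of induction no member of the list passed limma's test against control day 2.5. At 24 h, against control day 3, the lactate dehydrogenase subunit Ldhb and the lactate transporter Slc16a1 were lower and the prolyl hydroxylase Egln3 was higher. The threshold was 0.05 for the p-value adjusted by Benjamini and Hochberg's method over all 19938 genes. At 12 h, 0 of 32 members passed, against 1.39% of all genes, and 2 of 32 had an unadjusted p under 0.05 (all genes: 1387 of 19938). At 24 h, 3 of 32 members passed (9.38%), against 5.46% of all genes, and 7 had an unadjusted p under 0.05, 21.9% of members beside 16.1% of all genes (3219 of 19938). Split by direction, 1 member rose against 2.03% of all genes, and 2 fell against 3.43%.

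The members' median log2 difference was 0.02 at 12 h, beside -0.01 over all genes, and -0.08 at 24 h, beside 0.00 over all genes. At 24 h 24 of 32 members were below 0, beside 10103 of 19938 genes, and at 12 h 15 were, beside 10392. The members varied together between arrays, so their signs are not independent of each other. The 12 h median moved to -0.13 without control day 2.5 replicate 1, an array on which 28 of 32 members lay below their group mean. Within same-numbered pairs of arrays, 5 members were higher and 8 lower in all 3 pairs at 12 h, 15.6% and 25% of members beside 17% and 20.6% of all genes. At 24 h 2 were higher and 11 lower, 6.25% and 34.4% of members beside 19.1% and 20.4% of all genes. The 2 groups of a day did not overlap for 5 members at 12 h (Pfkm, Ldha, Ldhb and Pdk1 lower, Egln3 higher), 15.6% of members against 14.5% of all genes. At 24 h they did not overlap for 11 members, 34.4% against 18.5% of all genes: Slc2a1, Pfkl, Pfkm, Tpi1, Eno2, Ldha, Ldhb, Slc16a1 and Bnip3l lower, and Slc2a3 and Egln3 higher. The RNA is from whole embryoid bodies, so fewer cells of a type and less RNA per cell cannot be told apart.

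How small a change these arrays could show is given by the intervals. The 95% interval of the difference lay within 1.5-fold in both directions for 22 of 32 members at 12 h and 21 of 32 at 24 h. Over all 32 members the intervals reached between 0.26 and 0.55 to either side on the log2 scale. Across all genes it did so for 13424 and 10658. For the other members a difference of that size cannot be set aside at this number of arrays.

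**Figure D1:**
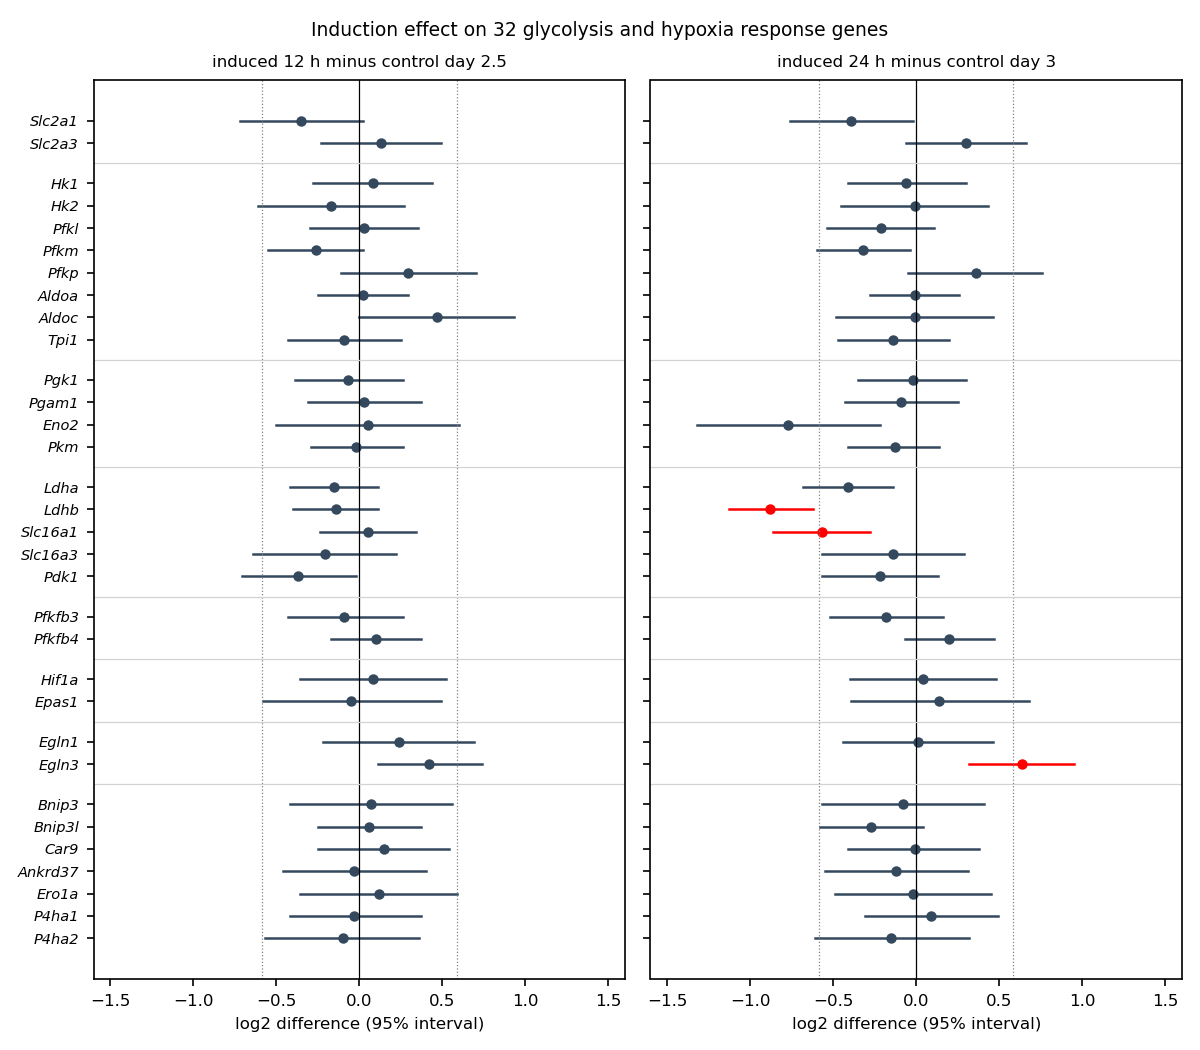
Log2 difference between induced and control embryoid bodies at 12 h (left) and 24 h (right) for the 32 measured members, ordered by role and separated by grey lines. Points are limma estimates from 3 arrays per group, lines are 95% intervals, red marks an adjusted p under 0.05 and dotted lines mark 1.5-fold. At 12 h no interval is red, and at 24 h Ldhb (-0.88), Slc16a1 (-0.57) and Egln3 (0.64) are.

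The lactate and pyruvate branch held both of the members that fell. Ldhb encodes the H subunit of lactate dehydrogenase, the form that prevails in oxidative tissues. Its log2 signal was 10.20, 10.21 and 10.27 in control day 2.5 and 10.06, 10.11 and 10.08 at 12 h. It was 10.26, 10.11 and 10.09 in control day 3 and 9.26, 9.37 and 9.19 at 24 h. All 3 arrays at 24 h lay below every other array of the study. Ldhb fell by 0.88 ± 0.12 (SE, limma, 1.84-fold) at 24 h, with an interval from -1.13 to -0.62 and an adjusted p of 0.0003. The difference was -0.99 and -0.74 in the iEGS pairs and -0.90 in the iB1 pair. A second probe set of Ldhb gave -0.90 (adjusted p = 0.00294 over all single-symbol probe sets). That of the second probe set was 0.0754 without replicate 2 and 0.0501 without replicate 3, just outside the threshold. At 12 h the Ldhb difference was -0.14 (adjusted p = 0.999).

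Ldha encodes the M subunit, the form that prevails in glycolytic tissues and a known HIF target. Its signal was 11.65, 11.51 and 11.62 in control day 3 and 11.09, 11.24 and 11.22 at 24 h, so that the groups did not overlap. The difference was -0.41 ± 0.124 (SE), 1.33-fold, and it missed the threshold with an adjusted p of 0.0796. At 12 h, where the groups did not overlap either, it was -0.15 (adjusted p = 0.999).

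Slc16a1 encodes MCT1, a transporter that carries lactate and pyruvate with a proton. It read 8.20, 8.28 and 8.35 in control day 2.5 and 8.39, 8.35 and 8.25 at 12 h, and these groups overlapped. It read 8.80, 8.63 and 8.77 in control day 3 and 8.21, 8.33 and 7.95 at 24 h. The control day 3 arrays were the highest of the study for this gene, and the 24 h arrays lay in or under the range of day 2.5. Slc16a1 fell by 0.57 ± 0.134 (SE, limma, 1.48-fold) against control day 3, with an adjusted p of 0.0203, and was lower in 3 of 3 pairs. Its control difference between days was 0.46 (adjusted p = 0.23), and induced 24 h differed from induced 12 h by -0.16 (adjusted p = 0.684). The call was lost on leaving out any 1 of the 3 replicates (adjusted p from 0.0792 to 0.344), control day 3 replicate 1 (0.0946), control day 3 replicate 3 (0.0779) or induced 24 h replicate 3 (0.063).

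The other lactate and pyruvate genes did not pass. Slc16a3, the export-type lactate transporter MCT4, differed by -0.21 at 12 h and -0.14 at 24 h. Pdk1, the kinase that holds pyruvate back from mitochondrial oxidation, differed by -0.37 at 12 h, where the groups did not overlap, and by -0.22 at 24 h, with adjusted p-values of 0.65 and 0.559. All 5 members of this branch were below 0 at 24 h, with a median of -0.41, beside 10103 of 19938 genes below 0.

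**Figure D2:**
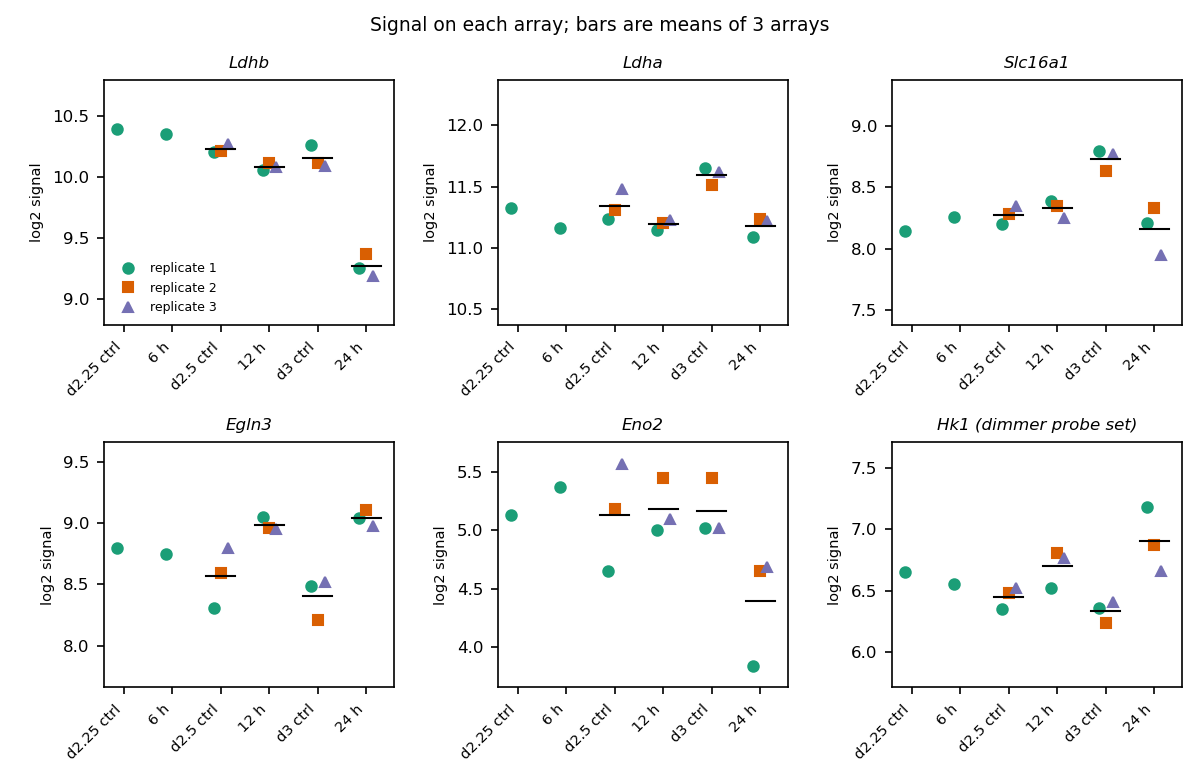
Log2 signal on each of the 14 arrays for Ldhb, Ldha, Slc16a1, Egln3, Eno2 and the dimmer Hk1 probe set, with control and induced groups of a day side by side. Symbols and colours mark the replicate number (circle 1, square 2, triangle 3), black bars are means of 3 arrays, and the vertical ranges differ between panels. The 3 arrays at 24 h are the lowest for Ldhb (9.19 to 9.37), and in the Egln3 panel all induced arrays at 12 h and 24 h (8.95 to 9.11) lie above the controls.

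Of the glucose transporters, Slc2a1 encodes GLUT1, the widely expressed transporter, and Slc2a3 encodes GLUT3, a high-affinity one. Slc2a1 read 11.30, 11.78 and 11.81 in control day 2.5 and 11.24, 11.23 and 11.37 at 12 h. It read 11.74, 11.56 and 11.69 in control day 3 and 10.94, 11.46 and 11.42 at 24 h. Induced arrays of Slc2a1 were below the control of the same number in every pair, but the differences of -0.35 and -0.39 missed the threshold (adjusted p = 0.792 and 0.276). Slc2a3 differed by 0.13 and 0.30 (adjusted p = 0.999 and 0.422). It was the only transporter of the pair with a difference above 0.

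Among the upper steps, no enzyme passed at either time. The differences at 24 h ran from -0.32 for the phosphofructokinase subunit Pfkm (adjusted p = 0.239) to 0.36 for the subunit Pfkp (adjusted p = 0.381), with -0.21 for the third subunit, Pfkl. Pfkm had -0.26 and Pfkp 0.29 at 12 h, so both kept their sign. The aldolase Aldoa, between 12.35 and 12.61 on all 14 arrays, differed by 0.02 and -0.01. Aldolase Aldoc had the largest difference of any member at 12 h, 0.47 (interval up to 0.93, adjusted p = 0.723), and -0.01 at 24 h. The triose phosphate isomerase Tpi1 differed by -0.09 and -0.14. The hexokinase Hk2, which feeds glucose into the pathway, differed by -0.17 and -0.01.

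Hexokinase 1 gave different answers from its 2 single-symbol probe sets. The brighter one, with a mean of 9.89, had a 24 h difference of -0.06 (adjusted p = 0.91). The dimmer one, with a mean of 6.60, read 6.36, 6.24 and 6.41 in control day 3 and 7.18, 6.87 and 6.66 at 24 h, and these arrays did not overlap. Its difference was 0.57, with an interval from 0.25 to 0.89 and an adjusted p of 0.0439 over 21789 probe sets (limma). The adjusted p rose past 0.05 without replicate 1 (0.134), replicate 2 (0.449) or replicate 3 (0.127). On leaving out single arrays it was 0.121, 0.174 and 0.0922 without control day 3 replicate 1, 2 or 3, and 0.076, 0.0978 and 0.017 without induced 24 h replicate 1, 2 or 3. In the platform annotation the brighter probe set rests on 1 cDNA accession, while the dimmer one carries RefSeq transcripts of Hk1. The difference between the probe sets was not tested. For Pgk1, Pgam1, Pkm, Bnip3 and Bnip3l the probe sets gave 24 h differences within 0.08 of each other, and some of these sets returned the same values, so that near-identical copies of these genes cannot be told apart.

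Of the lower steps, the abundant enzymes stood close to their controls. Phosphoglycerate kinase Pgk1 differed by -0.07 and -0.02, phosphoglycerate mutase Pgam1 by 0.03 and -0.09, and pyruvate kinase Pkm by -0.02 and -0.13. The neuronal enolase Eno2 was dim, and read 5.02, 5.45 and 5.02 in control day 3 and 3.84, 4.65 and 4.69 at 24 h. Replicate 1 at 24 h was the lowest array of the study for Eno2, and the groups did not overlap. The difference was -0.77 ± 0.256 (SE) with an adjusted p of 0.119, which became 0.0135 once replicate number entered the fit as a block. Against induced 12 h it was -0.79, with 0.183 and, with the block, 0.0225. At this level RMA compresses differences.

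Pfkfb3 and Pfkfb4 make and break fructose 2,6-bisphosphate, the activator of phosphofructokinase. Pfkfb3 differed by -0.09 and -0.18 and Pfkfb4, a dim gene between 4.23 and 4.67 on all arrays, by 0.10 and 0.20. Neither passed the test (adjusted p = 0.637 and 0.487 at 24 h).

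The HIF alpha subunits Hif1a and Epas1 (HIF2 alpha) are regulated mainly at the protein level, which arrays do not measure. Hif1a read 8.86, 8.45 and 8.44 in control day 2.5 and 8.80, 8.54 and 8.64 at 12 h. It read 8.91, 8.55 and 8.46 in control day 3 and 9.11, 8.67 and 8.26 at 24 h, and the groups overlapped at both times. The differences were 0.08 (interval -0.36 to 0.52) and 0.04 (-0.40 to 0.48). Replicate 1 had the highest Hif1a signal in each of the 4 groups.

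Epas1 read 6.20, 5.45 and 5.56 in control day 2.5 and 6.21, 5.71 and 5.16 at 12 h. It read 5.69, 5.28 and 5.18 in control day 3 and 5.66, 5.44 and 5.48 at 24 h. The differences were -0.05 (interval -0.58 to 0.49) and 0.14 (-0.39 to 0.68), and here too replicate 1 was highest in each group. The 2 arrays of day 2.25, both replicate 1, read 6.69 and 6.80, above all others.

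The prolyl hydroxylases mark HIF alpha for destruction when oxygen is present. Egln3 (PHD3) read 8.31, 8.59 and 8.80 in control day 2.5 and 9.05, 8.96 and 8.95 at 12 h. It read 8.49, 8.21 and 8.52 in control day 3 and 9.04, 9.11 and 8.98 at 24 h. At both times every induced array lay above every control array, and the induced arrays spanned a narrower range than the controls. Egln3 differed by 0.42 at 12 h, 1.34-fold, without passing (adjusted p = 0.348). It rose by 0.64 ± 0.147 (SE, limma, 1.55-fold) at 24 h, with an interval from 0.32 to 0.95 and an adjusted p of 0.0185. The pairs gave 0.54 and 0.90 in iEGS and 0.46 in iB1. Induced 24 h differed from induced 12 h by only 0.06 (adjusted p = 0.922, limma). The effect at 24 h differed from that at 12 h by 0.21 (adjusted p = 0.999). The call was lost without replicate 2 (adjusted p = 0.435), replicate 3 (0.098), control day 3 replicate 2 (0.107) or induced 24 h replicate 2 (0.0729). Egln1 (PHD2), the main oxygen sensor in most cells, differed by 0.24 and 0.01 (adjusted p = 0.999 and 0.991).

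The remaining 7 hypoxia response genes are Bnip3 and Bnip3l, which target mitochondria for removal, the carbonic anhydrase Car9, Ankrd37, the endoplasmic reticulum oxidase Ero1a, and the collagen prolyl hydroxylases P4ha1 and P4ha2. None passed at 12 h or 24 h, and their differences ran from -0.10 to 0.15 at 12 h and from -0.27 to 0.09 at 24 h. Bnip3l had the lowest of these, -0.27 (adjusted p = 0.382), with groups that did not overlap. Ero1a read 9.45, 10.17 and 10.35 in control day 2.5, 9.77, 10.29 and 10.26 at 12 h, 10.13, 9.76 and 10.13 in control day 3 and 9.83, 10.10 and 10.03 at 24 h. Ankrd37 read 7.04, 7.38 and 7.90 in control day 2.5, 7.23, 7.57 and 7.42 at 12 h, 7.36, 7.50 and 7.66 in control day 3 and 7.13, 7.58 and 7.45 at 24 h. For both genes the control arrays of day 2.5 spread wider than any group differed, and all groups overlapped. Car9 stayed between 4.18 and 4.94 on all 14 arrays.

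No member's induction effect was called as larger or smaller at 24 h than at 12 h. In this comparison of the 2 effects, 0 of 32 members were called by limma, against 0.426% of all genes, and 3 had an unadjusted p under 0.05 (all genes: 1139 of 19938, or 5.71%, beside 9.38% of members). These were Ldhb (-0.73, adjusted p = 0.105), Slc16a1 (-0.62, adjusted p = 0.346) and Eno2 (-0.82, adjusted p = 0.819). So the Ldhb call at 24 h and its absence at 12 h do not amount to a called difference between the times.

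Over the same interval the control embryoid bodies showed no called member. Between day 2.5 and day 3, 0 of 32 members passed against 0.757% of all genes. By limma's unadjusted p, 3 were under 0.05 (9.38% of members, and 6.56% of all genes, 1307 of 19938): Slc16a1 (0.46), the collagen hydroxylase P4ha1 (0.48, adjusted p = 0.537) and Pdk1 (-0.48, adjusted p = 0.358). In induced cells between 12 h and 24 h, 1 of 32 members passed, Ldhb, which fell by 0.81 (adjusted p = 0.00278), against 1.81% of all genes. P4ha1 differed by 0.59 (adjusted p = 0.163) there. These comparisons share arrays with the induction effects and are no separate evidence for them. The Ldhb call was lost without replicate 2 (adjusted p = 0.16) or replicate 3 (0.144).

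The 2 ES lines gave no called member. Between iB1 and iEGS, 0 of 32 members passed, against 0% of all genes, and 2 had an unadjusted p under 0.05, Aldoc (0.35) and Epas1 (-0.36), each with an adjusted p of 0.63 (all genes: 1528 of 19938 had an unadjusted p under 0.05). With a term for a different induction effect in iB1, 0 of 19938 genes passed limma's test at either time, members included, so this fit says nothing particular about the members. Their smallest adjusted p was 1 at 12 h and 0.774 at 24 h, and 0 and 1 of them had an unadjusted p under 0.05. Line iB1 has 1 array per group, and the fit left 4 residual degrees of freedom.

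At 6 h, with 1 array per group and so no replicate check, no member differed by 1.5-fold, a size that 2.69% of all genes reached. The 4 largest differences were in Slc2a1 (11.56 in the control and 11.15 induced, 1.33-fold lower), Ankrd37 (7.56 and 7.22, 1.27-fold lower), Pfkfb4 (4.35 and 4.66, 1.24-fold higher) and Ero1a (9.94 and 9.65, 1.22-fold lower). Slc2a1 was thus lower in the induced array at 6 h as in the later pairs. Ldhb, Slc16a1 and Egln3 differed by -0.04, 0.12 and -0.06. In all, 24 of 32 members were below 0, beside 9944 of 19938 genes, with a median of -0.09 beside 0.00 over all genes.

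The members varied together between arrays of the same group. Over the 12 arrays of the 4 larger groups, deviations from the group mean had a mean pairwise correlation of 0.30 among members, and 25.4% of their 496 pairs exceeded 0.7. The same figures were 0.01 and 8.07% over all genes, and 0.12 and 13.6% over genes above the 40th percentile of mean signal. The level was not particular to the members. Of the further lists read below, pyruvate dehydrogenase and citric acid cycle genes had 0.33 and 24.1%. The rest of those lists had mean correlations from -0.03 to 0.19. Endothelial markers had 0.31 and primitive streak markers 0.29, with 17.1% and 12.7% of pairs above 0.7. Which arrays were normalized jointly is not known, and same-numbered arrays deviated together across all genes. The standard deviation of log2 signal over genes ran from 1.91 (induced 24 h replicate 3) to 2.22 (control day 2.5 replicate 1). The correlations are therefore a description of these arrays. The 7 hypoxia response genes had a mean correlation of 0.56, which was 0.37 without control day 2.5 replicate 1, 0.40 without control day 2.5 replicate 3 and 0.32 without replicate 1 altogether. That of all members was 0.20, 0.22 and 0.21 on leaving out the same arrays, beside 0.12, 0.12 and 0.16 for genes above the 40th percentile. The closest pairs were Slc2a3 with Ero1a (0.98), Pgk1 with Egln1 (0.96), Tpi1 with Egln1 (0.95), Slc2a1 with Aldoa (0.95) and Slc2a3 with Pfkl (0.95). Hif1a and Epas1 ran the other way, with mean correlations of -0.28 and -0.41 with the other members and -0.92 between Epas1 and Pgk1. The hexokinases Hk1, read from its brighter probe set, and Hk2 had -0.90. At 24 h that probe set deviated by -0.32, 0.04 and 0.29 in replicates 1 to 3, and Hk2 by 0.43, 0.08 and -0.51. The dimmer Hk1 probe set ran in the order of Hk2 there (7.18, 6.87 and 6.66), so the direction at 24 h depends on the probe set.

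Much of this joint variation came with a few arrays. In control day 2.5 replicate 1 all 7 hypoxia response genes and 28 of 32 members were below their group mean, with a median of -0.40 for the 7 genes. In induced 12 h replicate 1, the array with the same number, all 7 were again below (median -0.30), and in control day 2.5 replicate 3 all 7 were above (median 0.36). The median deviation of all genes on these 3 arrays was between -0.02 and 0.00. Without control day 2.5 replicate 1, 16.1% of member pairs exceeded 0.7 beside 14.7% of pairs of brighter genes, and without replicate 1 altogether the shares were 15.9% and 18.3%. Without control day 2.5 replicate 3 they were 21.2% and 15.7%. Culture oxygen and cell density, which are not in the labels, were not tested.

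**Figure D3:**
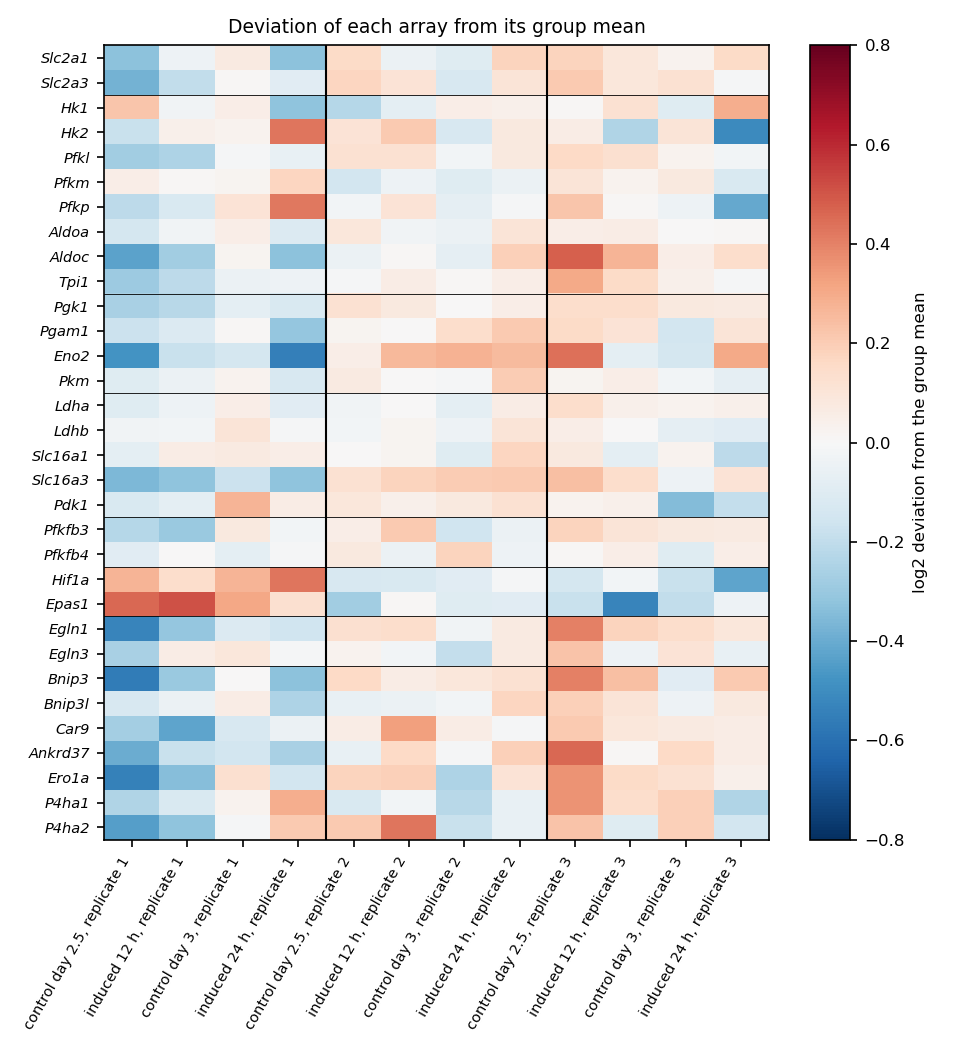
Deviation of each of 12 arrays (columns, ordered by replicate number) from its group mean on the log2 scale for the 32 members (rows, by role). Blue is below and red above the mean. The first column, control day 2.5 replicate 1, is blue in 28 of 32 rows and red for Hk1, Pfkm, Hif1a and Epas1, and control day 2.5 replicate 3 is blue in 2 rows.

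The genes around these pathways were read from 6 further lists. At 12 h none of their genes passed, by limma without a block, against 1.39% of all genes. At 24 h, of 29 further hypoxia response genes 0 rose and 4 fell, with a list median of -0.26. Over all genes 2.03% rose and 3.43% fell. Ndrg1, a gene induced by hypoxia and by differentiation, read 8.66, 8.36 and 8.30 in control day 3 and 6.10, 6.88 and 6.74 at 24 h. It fell by 1.87 ± 0.215 (SE, 3.66-fold, adjusted p = 6.13e-05), and at 12 h it differed by -0.70 (adjusted p = 0.209). At 6 h, with 1 array per group, it read 7.95 in the control and 7.09 induced, 1.81-fold lower. Its induced arrays at 24 h were the lowest of the study.

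The other 3 that fell encode transcriptional repressors. Mxi1, a MAX partner that opposes MYC, read 6.97, 7.19 and 6.99 in control day 3 and 6.36, 6.53 and 6.43 at 24 h, and fell by 0.61 (adjusted p = 0.00973). Bhlhe40 read 8.13, 8.23 and 7.96 and then 6.91, 7.66 and 7.33, and fell by 0.81 (adjusted p = 0.021). Nfil3 read 7.28, 6.98 and 7.49 and then 6.56, 6.37 and 6.00, and fell by 0.94 (adjusted p = 0.0238). None of the 3 overlapped its control, and each was lower in 3 of 3 pairs. Vegfa, the angiogenic ligand and a HIF target, differed in the other direction, by 0.56 (adjusted p = 0.0539, and 0.0311 with the replicate block).

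Leaving out 1 array or 1 replicate ended some of these calls. Bhlhe40 was lost without replicate 1, 2 or 3 (adjusted p = 0.0992, 0.113 and 0.109), and without control day 3 replicate 1 (0.0774) or 2 (0.0962). Mxi1 was lost without replicate 2 (0.19), replicate 3 (0.148) or control day 3 replicate 2 (0.0644). Nfil3 was lost without replicate 2 (0.149) or 3 (0.376), without control day 3 replicate 1 (0.0853) or 3 (0.118), and without induced 24 h replicate 2 (0.0632) or 3 (0.0941). Ndrg1 passed in all 25 alternatives, with an adjusted p of at most 0.00627. Counting every alternative, Mxi1 passed in 19 of 25, Nfil3 in 18 and Bhlhe40 in 17.

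Of 21 further glycolysis isoforms and pyruvate enzymes, 1 fell at 24 h, beside 3.43% of all genes. This was Pdp1, the phosphatase that switches pyruvate dehydrogenase on, which read 7.52, 7.52 and 7.45 in control day 3 and 6.91, 6.85 and 6.24 at 24 h and fell by 0.83 (adjusted p = 0.00951). The Pdp1 call was lost without replicate 2 (adjusted p = 0.132) or replicate 3 (0.124), and with no further groups in the fit (0.0603). Of 13 regulators of the respiratory chain, 1 fell, the MYC family gene Mycn, beside the same 3.43% of all genes. Mycn read 7.51, 7.36 and 7.29 in control day 3 and 6.66, 6.76 and 6.32 at 24 h, and fell by 0.81 (adjusted p = 0.0105). A single gene in a list of 21 or 13 says little about the list. The Mycn call was lost without replicate 2 (adjusted p = 0.119), replicate 3 (0.165) or control day 3 replicate 1 (0.0584), and with array weights (0.0674). Mycn differed by -0.72 at 12 h (adjusted p = 0.0623, and 0.0104 with the replicate block).

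None passed at 24 h of 12 HIF pathway regulators or of 20 genes of the pentose phosphate, glycogen and serine branches. Of 23 genes of pyruvate dehydrogenase and the citric acid cycle none passed either, while 5.46% of all genes did. Limma's unadjusted p was under 0.05 for 1, 2 and 2 genes of these lists, beside 16.1% of all genes. All 12 HIF pathway regulators were below 0, between -0.39 and -0.06, among them the HIF partner Arnt (-0.14, adjusted p = 0.747). Over all genes 10103 of 19938 were below 0. From 12 h to 24 h of induction the pyruvate dehydrogenase kinase Pdk4 fell by 0.79 (adjusted p = 0.0358) and Myc rose by 0.94 (adjusted p = 0.0298). Both calls were lost without replicate 2 (adjusted p = 0.574 for Pdk4 and 0.482 for Myc) or replicate 3 (0.221 and 0.333). Leaving out single arrays also ended both: the adjusted p was 0.177 for Pdk4 and 0.161 for Myc without induced 12 h replicate 2, 0.119 and 0.102 without induced 24 h replicate 2, and 0.0821 and 0.113 without induced 12 h replicate 3. That of Myc was 0.0591 without induced 24 h replicate 3, and that of Pdk4 was 0.0565 without control day 3 replicate 2 and 0.0531 without control day 2.5 replicate 3. Counting every alternative, Pdk4 passed in 14 of 24 and Myc in 17 of 25.

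**Figure D4:**
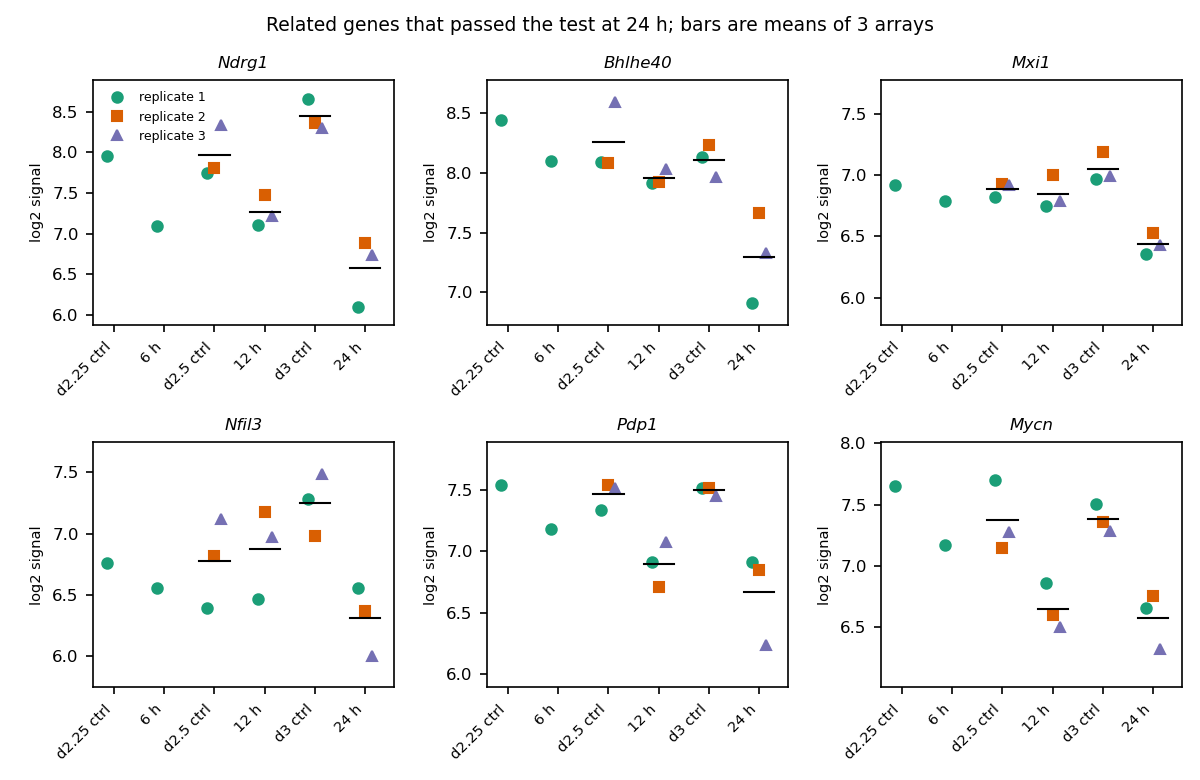
Log2 signal on each of the 14 arrays for Ndrg1, Bhlhe40, Mxi1, Nfil3, Pdp1 and Mycn, drawn as for the members above (symbols and colours for replicates, black bars for means of 3 arrays, vertical ranges that differ). In every panel the 3 arrays at 24 h lie below the 3 of control day 3, furthest for Ndrg1 (6.10 to 6.88 against 8.30 to 8.66).

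Cell type markers were read over the same comparisons as the members. Of 15 endothelial and hemangioblast markers 10 rose at 12 h and 11 at 24 h, and their summed linear signal was 963 to 1131 in control day 3 and 3798 to 5833 at 24 h (673 to 857 and 1909 to 2614 at 12 h). Of 11 primitive streak and mesoderm markers 5 fell at 12 h and 11 at 24 h, with sums of 5342 to 6634 in control day 3 and 552 to 683 at 24 h. Of 13 markers of undifferentiated and epiblast cells 3 fell at 12 h and 8 at 24 h, with sums of 11473 to 12183 and 3794 to 4838. Of 14 fibroblast markers, read for the feeders, 0 and 1 rose, with sums of 5081 to 6948 and 5943 to 7444. These sums follow the brightest markers. In control day 2.25 Fn1, Vim and Sparc read 10.24, 10.18 and 10.03, and Lum read 2.44. On each array 4 to 6 of the 14 lay below the 40th percentile of its signal, so the sums do not measure feeder content. Over all 19938 genes, 162 rose and 115 fell at 12 h, and 405 rose and 683 fell at 24 h. RMA signals have no 0, so no marker could be called absent. The part of these cell types in the fall of Ldhb and Slc16a1 and in the rise of Egln3 was not tested.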

How the data were processed

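The deposited log2 expression values of 35556 probe sets were made by the authors with RMA, and the submitters' processing notes name Affymetrix Expression Console as the program. Software versions were not given in the sources used here, nor was the set of arrays normalized jointly. RMA removes shifts shared by most genes and compresses low signals. Platform annotation gave 1 symbol for 21789 probe sets, several for 1621 and none for 12146, and RefSeq held 21698 by gene identifier with 0 symbols changed. The probe set of highest mean stood for each of 999 genes with several, which left 19938 genes.

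The 12 arrays of the 4 groups of 3 entered 1 fit in limma 3.58.1 under R 4.3.3 (lmFit, eBayes, group means; 8 residual and 6.05 prior degrees of freedom), which was first tested on simulated data. Adjusted p-values run over all genes, intervals are 95%, and a group mean has n = 3 unless stated otherwise. The number of arrays limits precision. The members and gene lists were chosen with earlier results of these data known. Values per array are given for members that passed any test, the HIF alpha subunits and the 4 members furthest apart at 6 h. Slc2a1 is among those 4, as is Pfkfb4, which is given by its range on day 2.5 and day 3. From the other lists they are given for up to 4 called genes of smallest adjusted p. Ldha, Eno2, Nfil3, Bhlhe40 and the dimmer Hk1 probe set were added after their values were seen. So were Vegfa, Pdk4, Myc and Arnt, which are given by their differences only.

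Replicate numbers come from the labels, and the design text says that experiments were independent. Same-numbered arrays deviated together from their group means across all genes. Their r was 0.573, 0.344 and 0.262 on day 2.5 and 0.517, 0.157 and 0.261 on day 3. The pairing was not clear throughout. Control day 3 replicate 2 had a higher r with induced 24 h replicate 3 (0.375) than with its own number. Pairs entered only the differences per pair, the pair counts and the replicate block, while the main fit held group means without pairing. The replicate block also assumes that the pairing holds across days.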

Additional observations from a re-analysis of the deposited data

How the results depend on the processing

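The brighter Ldhb probe set passed at 24 h in all 25 alternatives (adjusted p at most 0.0298), Egln3 in 19 and Slc16a1 in 17, each with its direction kept. With the replicate block, 441 genes in place of 277 passed at 12 h, and 2 members in place of 1 (Eno2 added) passed from induced 12 h to 24 h; Eno2 was also added at 24 h, and the block changed no other call among the members. A further quantile normalization gave 2 members there too. When the fit held no arrays beyond the groups compared, and so fewer arrays, 1 member and 669 genes in place of 3 and 1088 passed at 24 h, and 0 members passed from 12 h to 24 h. With limma-trend, 1 member passed the test of a change of effect. With array weights, whose estimation did not fully converge, 3 members and 1885 genes passed at 12 h with a member median of -0.08, 1 member and 467 genes passed at 24 h, and 3 members passed between control days; the cause was not tested. A lower fold limit at 6 h, set between the 1.24-fold of Pfkfb4 and the 1.27-fold of Ankrd37, counted 2 members. Leaving out replicates or single arrays gave, from lowest to highest, 80 to 366 called genes at 12 h and 392 to 1889 at 24 h, with 177 at 12 h without induced 12 h replicate 1, 179 without induced 12 h replicate 3 and the 1889 without induced 24 h replicate 1. Called members ran from 1 to 3 at 24 h and from 0 to 1 from 12 h to 24 h of induction, and the member median at 12 h ran from -0.13 (without control day 2.5 replicate 1) to 0.09. The member median at 24 h stayed below 0, from -0.14 to -0.02, over the same settings.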
